A study of Homo sapiens with 12 samples.

Results

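Cisplatin and vancomycin, 2 drugs that injure kidney tubules, were set directly against each other. RNA of the 3 cisplatin samples was compared with RNA of the 3 vancomycin samples, chosen by their sample labels, which are 6 of the 12 samples of the series. All samples were HK-2 cells, an immortalised line of human proximal tubule cells. The cisplatin group received 5 μM cisplatin and the vancomycin group 4 mM vancomycin, both for 48 h. The 3 control samples, which the labels list with water, did not enter this test and served to tell which drug had moved a gene; 3 iohexol samples (75 mg I/mL for 48 h) completed the series. Each drug was given at 1 dose, so that drug and dose cannot be told apart. HK-2 is 1 immortalised line grown without other kidney cells, and no source names separate cultures for the replicates, so that p-values measure the spread between these samples, which may be technical.

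Cisplatin is a platinum compound used against tumours. It forms crosslinks within and between DNA strands, which block polymerases until repair pathways remove them, and it enters tubule cells through organic cation carriers. Vancomycin is a glycopeptide antibiotic against Gram-positive bacteria. It is taken up into the lysosomes of proximal tubule cells and is known for oxidative stress in this tissue, sensed by the KEAP1 and NRF2 pair. The comparison asks where the transcriptomes of the same cells part under these treatments.

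Of 58735 genes in the table, 16265 were tested. A differentially expressed gene (DEG) had an adjusted p under 0.05 (edgeR's quasi-likelihood test with Benjamini-Hochberg adjustment over all genes tested) together with a log2 difference of more than 1 in either direction, where positive values mean higher with cisplatin. By this rule 4665 genes, 28.7% of those tested, were DEGs between the drugs. Cisplatin had the higher level in 2176 of them (13.4% of genes tested) and vancomycin in 2489 (15.3%), and the 3 samples of one drug lay wholly above the 3 of the other in 4593 of the DEGs, against 73.0% of all genes tested. Their log2 fold changes ran from -8.53 to 7.90, with medians of 1.46 and -1.61, and 1345 DEGs differed at least 4-fold. Without a threshold on the fold, 11474 genes (70.5%) passed the adjusted p, 5728 higher with cisplatin and 5746 higher with vancomycin.

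Total counts were 14466712 to 15057150 with cisplatin, 16738188 to 18177109 with vancomycin and 14235479 to 16589507 in the control samples. Samples of one drug correlated at 0.987 to 0.991 in log2 CPM (CPM, counts scaled to the library's size) and samples of different drugs at 0.908 to 0.911. The gene FN1 alone took 0.75% to 0.805% of all counts with cisplatin, 2.04% to 2.13% in the control samples and 3.45% to 4.70% with vancomycin. The scaling to the bulk of the genes (TMM) takes such shares into account. When totals alone were used, the log2 fold changes shifted upwards by 0.28 in the median, the DEGs became 5080, and 64.7% of them were higher with cisplatin in place of 46.6%. Every direction below is therefore relative to the TMM scaling, and list counts that this other scaling moved by over 1.5 times are given with it. In bulk RNA, fewer cells of a kind and less RNA per cell cannot be told apart.

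**Figure D1:**
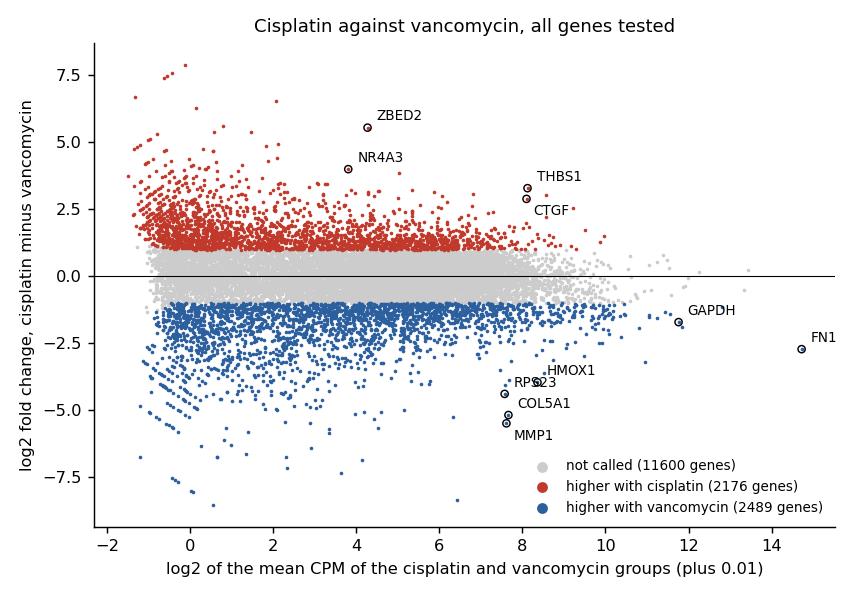
The log2 fold change of cisplatin minus vancomycin (vertical) is plotted against the log2 mean CPM of both drug groups (horizontal) for each of the 16265 genes tested. Red points are the 2176 DEGs higher with cisplatin, blue points the 2489 higher with vancomycin and grey points the genes not called; FN1 lies farthest to the right, below 0.

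Calls of each drug against the control group told which drug had moved a DEG; both comparisons share the control samples, and each shares a drug group with the direct test, so the classes are a description. Against control, 2594 genes (16.3% of 15876 tested, 7.62% above control and 8.72% below) were DEGs with cisplatin and 2923 (18.5% of 15819, 10.8% above and 7.65% below) with vancomycin. Among the 2176 genes higher with cisplatin, 676 were called with cisplatin alone, 628 with vancomycin alone, 62 with both in opposite directions and 24 with both in the same direction. Among the 2489 genes higher with vancomycin, the respective numbers were 742, 990, 136 and 65. The remaining 786 and 556 genes were called with neither drug. In those genes the median log2 change was 0.60 with cisplatin and -0.68 with vancomycin for the first direction, and -0.69 and 0.65 for the second. The 136 genes that parted in favour of vancomycin had a median of -1.60 with cisplatin and 1.56 with vancomycin against control.

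**Figure D2:**
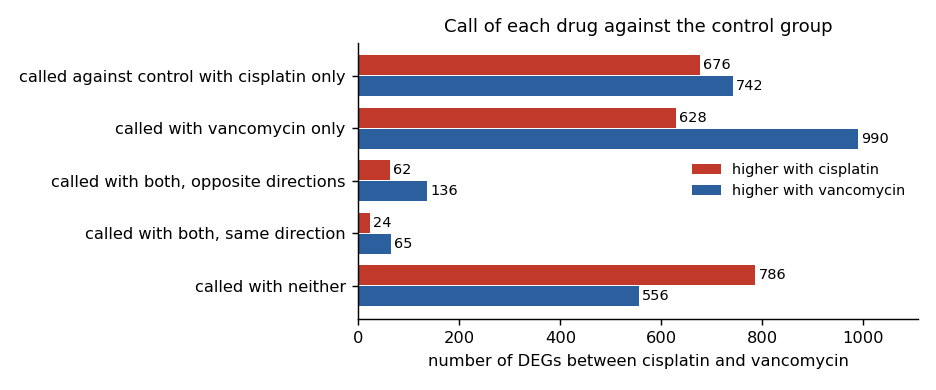
Bars count the DEGs between cisplatin and vancomycin by their call against the control group, in red for those higher with cisplatin and in blue for those higher with vancomycin. The longest bar holds the 990 genes that were higher with vancomycin and called against control with that drug alone; 786 and 556 genes were called against control with neither.

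CTGF had the smallest p among the genes higher with cisplatin. It encodes a matricellular protein and is a classic target of YAP (chromosome 6, 131948176 to 131951373 on GRCh38), and it stood at 486, 464 and 491 CPM in the 3 cisplatin samples, at 68.6, 67.2 and 66.1 CPM with vancomycin and at 359, 341 and 348 CPM in the control samples. Both drugs left the control range, cisplatin upwards and vancomycin downwards, and the DEG call against control was made for vancomycin only. The log2 fold change was 2.89 ± 0.06 (SE) with an edgeR adjusted p of 1.25e-17. ANKRD1, another YAP target, showed the same order at 195, 202 and 204 CPM with cisplatin, 22.5, 28.1 and 23 CPM with vancomycin and 113, 110 and 106 CPM in the control samples (log2 fold change 3.09 ± 0.08 SE, edgeR adjusted p = 8.2e-17). THBS1, the matrix glycoprotein thrombospondin 1, was lower than control with both drugs. It had 1200, 1190 and 1240 CPM in the control samples, 513, 515 and 483 CPM with cisplatin and 63.6, 49.1 and 48 CPM with vancomycin (log2 fold change 3.29 ± 0.09 SE, edgeR adjusted p = 1.9e-16). Its level with cisplatin was thus higher than with vancomycin although both drug groups lay below every control sample.

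COL12A1, a collagen that decorates fibrils, and DKK1, a secreted inhibitor of Wnt signalling, were called against control with both drugs in opposite directions. COL12A1 had 130, 129 and 120 CPM with cisplatin, 19.5, 17.2 and 20.1 CPM with vancomycin and 64.3, 63.7 and 60.3 CPM in the control samples, and its log2 fold change was 2.79 ± 0.08 (SE) with an edgeR adjusted p of 4.51e-16. For DKK1 the levels were 118, 113 and 127 CPM with cisplatin, 16.8, 16.3 and 13.7 CPM with vancomycin and 60, 52 and 51.8 CPM in the control samples (log2 fold change 2.99 ± 0.09 SE, edgeR adjusted p = 4.71e-16). Neither gene's drug groups overlapped each other or the control group. The other genes of this set, PEG10, GPRC5A, SHISA9, NCEH1 and MYBL1, had log2 fold changes of 3.05, 2.56, 3.13, 2.21 and 2.61. PEG10, an imprinted gene of retrotransposon origin, fell from 829, 777 and 760 CPM in the control samples to 91.5, 80.2 and 83.3 CPM with vancomycin, while the cisplatin samples held 690, 682 and 669 CPM. All 5 were called against control with vancomycin only.

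On the vancomycin side the smallest p belonged to COL5A1, a chain of the fibrillar collagen V (chromosome 9, 134641774 to 134844843). It stood at 11.8, 10.2 and 9.63 CPM with cisplatin, 422, 358 and 406 CPM with vancomycin and 86.4, 114 and 105 CPM in the control samples. The control samples lay between the drugs, and both drugs were called against them in opposite directions. Its log2 fold change was -5.18 ± 0.10 (SE) with an edgeR adjusted p of 1.55e-18. MMP1, the interstitial collagenase (chromosome 11, 102789920 to 102798160), had the same order with 7.69, 7.45 and 9.45 CPM, 338, 427 and 389 CPM and 31.2, 35.4 and 31 CPM in the cisplatin, vancomycin and control samples (log2 fold change -5.49 ± 0.10 SE, edgeR adjusted p = 1.55e-18). TNFSF10, the death ligand TRAIL, went from 105, 97.9 and 93.6 CPM in the control samples to 25.1, 24.5 and 26.5 CPM with cisplatin and 363, 418 and 367 CPM with vancomycin (log2 fold change -3.86 ± 0.08 SE, edgeR adjusted p = 2.86e-18). Each of the 3 genes thus parted from control in both directions, with no overlap between any groups.

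SPP1, which encodes the secreted phosphoprotein osteopontin, had 381, 363 and 380 CPM with cisplatin, 3300, 4010 and 3420 CPM with vancomycin and 1240, 1120 and 1090 CPM in the control samples (log2 fold change -3.20 ± 0.07 SE, edgeR adjusted p = 1.06e-17). HMOX1, the heme-degrading enzyme heme oxygenase 1, rose with vancomycin alone. Its levels were 551, 659 and 651 CPM there, 43.3, 35.9 and 36.2 CPM with cisplatin and 47.7, 56.8 and 57.9 CPM in the control samples (log2 fold change -3.96 ± 0.09 SE, edgeR adjusted p = 1.06e-17). The collagen-crosslinking enzyme LOXL2 and the potassium channel KCNK3 were called against control only with cisplatin, which lowered them. Their log2 changes with vancomycin against control, 0.64 and 0.99, fell short of the threshold of 1. KCNK3 had means of 25.8 CPM with cisplatin, 223 CPM with vancomycin and 110 CPM in the control samples. LOXL2 had 152, 154 and 160 CPM with cisplatin against 1260, 1200 and 1340 CPM with vancomycin and 697, 834 and 852 CPM in the control samples. NDRG1, known as a hypoxia-responsive gene, parted in both directions (log2 fold change -2.77 ± 0.06 SE, edgeR adjusted p = 1.69e-17). The plot of the 20 genes by sample shows these orders side by side.

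**Figure D3:**
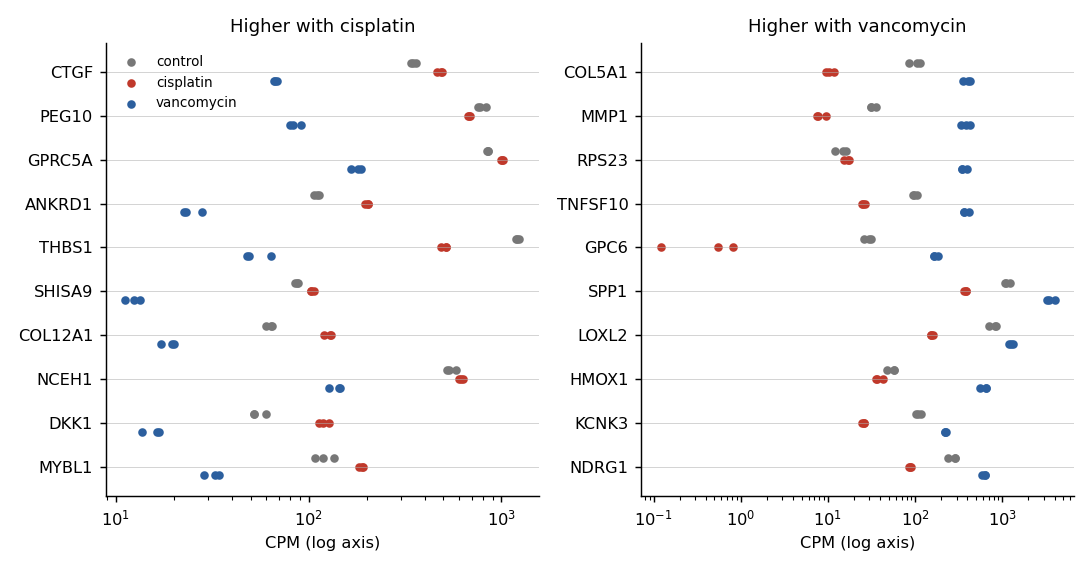
CPM on a log axis in every control (grey), cisplatin (red) and vancomycin (blue) sample for the 10 protein-coding genes with the smallest p in each direction, 3 points a group. In each of the 20 genes the red and blue points do not overlap; the grey points of THBS1 lie to the right of both drugs, and those of COL5A1, MMP1 and SPP1 lie between them.

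Genes that both drugs moved in opposite directions were ranked by the smaller of their 2 changes against control. The 5 that led among those higher with vancomycin had low levels with cisplatin. GPC6, a glypican of the cell surface that spans 1180560 bases of chromosome 13, had 31.1, 29.7 and 26.1 CPM in the control samples and 182, 165 and 167 CPM with vancomycin, but 2, 9 and 14 counts per library, or 0.121, 0.554 and 0.827 CPM, with cisplatin. The log2 fold change was -8.34 ± 0.17 (SE) with an edgeR adjusted p of 3.5e-18. MAP2, a microtubule-associated protein, had 0, 4 and 3 counts in the cisplatin libraries against 400, 371 and 395 with vancomycin and 47, 65 and 65 in the control libraries. The ectonucleotidase ENPP3 and the ubiquitin ligase HECW2 followed the same order, with mean levels of 1.01 and 0.304 CPM with cisplatin and 41.7 and 14.4 CPM with vancomycin. CA9, the hypoxia-induced carbonic anhydrase IX, had 2, 0 and 2 counts in the cisplatin libraries, 151, 155 and 158 with vancomycin and 21, 23 and 33 in control. No fold is given for MAP2 and CA9, whose counts on the cisplatin side were 4 or fewer.

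Of the 5 genes that led in the opposite direction 4 were not protein coding. ITGB2-AS1, an antisense transcript at the integrin gene ITGB2, had 6.6, 8.86 and 9.39 CPM with cisplatin, 1.52, 2.13 and 1.45 CPM in the control samples and 1, 3 and 0 counts in the vancomycin libraries. ITGB2 itself stood at 12.7, 12.7 and 14.6 CPM with cisplatin, 4.13, 2.9 and 3.08 CPM with vancomycin and 6.24, 5.33 and 7.5 CPM in control; as the strand setting of the counting is not given in the sources used here, reads of the pair cannot be told apart. FLJ45513, SNHG26, RNA5SP323 and the cytochrome gene CYP1A2 had means of 8.09, 7.95, 2.79 and 2.82 CPM with cisplatin against 0.384, 0.761, 0.109 and 0.104 CPM with vancomycin. RNA5SP323 lies within the span of CEP55.

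The largest fold changes among genes with at least 10 CPM in the higher group were also uneven. Toward cisplatin they were led by ZBED2, a zinc finger gene with 36, 38.5 and 38.8 CPM with cisplatin, 46.7, 46.7 and 41.6 CPM in the control samples and 0.876, 1.08 and 0.554 CPM with vancomycin (log2 fold change 5.55 ± 0.17 SE, edgeR adjusted p = 5.1e-16). The cisplatin and control samples lay close together, and vancomycin far below both. NR4A3, an orphan nuclear receptor of the immediate early class, was instead raised by cisplatin to 27.1, 26.8 and 25.1 CPM, with 3.99, 3.2 and 2.63 CPM in the control samples and 2.32, 1.42 and 1.36 CPM with vancomycin (log2 fold change 4.00 ± 0.17 SE, edgeR adjusted p = 6.39e-14). PLCXD2, SLFNL1 and the pseudogene RPL13AP20 followed with log2 fold changes of 3.84, 3.46 and 3.49. RPL13AP20 shares 46.6% of its 31-base windows with transcripts of other genes. Toward vancomycin GPC6, MAP2 and TMEM45A were joined by the pseudogenes RPSAP47 and AL355032.1, which share 62.8% and 51.2% of their 31-base windows with transcripts of other genes, so their counts are uncertain.

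Genes that degrade or build matrix were mostly higher with vancomycin. A value alone in parentheses after a gene is its log2 fold change between the drugs. Of 19 tested matrix metalloproteinases (MMPs), their inhibitors (TIMPs) and plasminogen activators, 15 were DEGs higher with vancomycin and 2 higher with cisplatin. Their median log2 fold change was -2.12 against 0.02 over all genes tested, with medians of -0.78 for cisplatin and 2.32 for vancomycin against control. MMP7 (matrilysin) had 27.4, 25.7 and 29.9 CPM with cisplatin and 293, 360 and 328 CPM with vancomycin, and MMP14, a membrane-bound activator of other MMPs, 130, 143 and 143 CPM and 837, 975 and 964 CPM. The gelatinases MMP2 and MMP9 stood at means of 0.364 and 0.462 CPM with cisplatin and 20.1 and 14.2 CPM with vancomycin. PLAT, the tissue plasminogen activator, went the other way, at 113, 102 and 105 CPM with cisplatin, 17, 18.7 and 19.5 CPM with vancomycin and 36, 37.3 and 39.8 CPM in control (log2 fold change 2.59 ± 0.08 SE, edgeR adjusted p = 1.38e-15), while PLAU, the urokinase, was higher with vancomycin (-1.96). MMP17 was the other DEG higher with cisplatin.

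Of 25 tested collagen genes 20 were DEGs higher with vancomycin and 2, COL12A1 and COL17A1, higher with cisplatin, with a median of -1.50. The basement membrane chains COL18A1 and COL4A2 were called with cisplatin only. COL18A1 had 116, 113 and 112 CPM with cisplatin, 605, 611 and 635 CPM with vancomycin and 378, 509 and 547 CPM in the control samples, where 1 of the 3 lay lower than the others. Among 20 matrix glycoprotein genes 9 were higher with vancomycin and 4 with cisplatin (median -0.87). FN1, fibronectin, had 7150, 6850 and 6670 CPM with cisplatin, 52300, 39000 and 49800 CPM with vancomycin and 21100, 21300 and 21800 CPM in the control samples (log2 fold change -2.72 ± 0.08 SE, edgeR adjusted p = 7.77e-16). Both drugs moved it, apart from each other. The anti-adhesive glycoprotein TNC and the crosslinking enzyme LOX did the same, LOX with a log2 fold change of -2.89. The 4 higher with cisplatin were CTGF, THBS1, CYR61 and TNFAIP6. Of 29 laminins and integrins 12 were higher with vancomycin, led by the collagen receptors ITGA1 (-3.22) and ITGA2 (-2.52), and 3 with cisplatin, among them ITGB2 (2.03). Of 9 cadherins 5 were higher with vancomycin and 1 with cisplatin. CDH6, a kidney cadherin of proximal tubule precursors, had 64.1, 62.5 and 65.7 CPM with cisplatin against 401, 341 and 368 CPM with vancomycin and 539, 517 and 504 CPM in control. Both drug groups lay below every control sample, cisplatin much further. Markers of fibroblasts and pericytes, cells that make matrix, summed to 122 to 127 CPM with cisplatin, 319 to 366 CPM with vancomycin and 145 to 161 CPM in control. Of 8 markers 5 were tested, and 3 of these, LUM, DCN and RGS5, were DEGs higher with vancomycin. The other 2 leaned toward cisplatin without being DEGs, 1 of them with an edgeR adjusted p under 0.05. RGS5, with 10256 counts over all 12 libraries, overlaps NUF2, with 9705. COL1A2 had 7 counts and PDGFRA 6 over all 12 libraries. The part of these markers in the matrix results was not tested.

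YAP target genes, which report on the mechanics of the cytoskeleton, leaned the other way. Of 22, 8 were DEGs higher with cisplatin and 3 with vancomycin, against 13.4% and 15.3% of all genes tested. The YAP targets had a median of 0.86. Against control their medians were -0.48 with cisplatin and -0.99 with vancomycin, and no member was a DEG above control with either drug, while 4 with cisplatin and 11 with vancomycin lay below it. With totals alone as scaling the counts were 14 and 2. CYR61 ran at 1100, 1110 and 1090 CPM with cisplatin, 334, 335 and 360 CPM with vancomycin and 1380, 1570 and 1590 CPM in control, and IGFBP3 (-1.40) and NT5E (-1.28) were higher with vancomycin. The contractile actin genes held 3 DEGs among 15, all higher with vancomycin; TAGLN, the one of these at a sizeable level, had 11.3, 16.3 and 14.7 CPM with cisplatin and 29.1, 32.7 and 29.6 CPM with vancomycin, and its call was lost with totals alone or without cisplatin replicate 1.

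Enzymes of the antioxidant defence were higher with vancomycin. NRF2 target genes, which carry antioxidant response elements, had 16 of 24 tested members among the DEGs higher with vancomycin and none higher with cisplatin, with a median of -1.67. Against control 17 were DEGs above it with vancomycin (median 1.28), and with cisplatin 1 was above and 2 below (median -0.14). After HMOX1 the smallest p belonged to TKT, a transketolase of the pentose phosphate path, with 273, 282 and 287 CPM with cisplatin, 1610, 1610 and 1700 CPM with vancomycin and 495, 566 and 561 CPM in the control samples (log2 fold change -2.49 ± 0.06 SE, edgeR adjusted p = 2.35e-17). Vancomycin samples lay far above both other groups, and the cisplatin samples lay below control. NQO1, the quinone reductase that classically marks the pathway, had 107, 105 and 110 CPM, 267, 297 and 283 CPM and 103, 91.4 and 87.1 CPM in the same order (log2 fold change -1.34 ± 0.06 SE, edgeR adjusted p = 3.42e-13). SLC7A11, the cystine importer for glutathione synthesis, was called with both drugs apart, at 11.6, 11.8 and 11.3 CPM with cisplatin, 93.2, 75.6 and 72.4 CPM with vancomycin and 39.8, 31.7 and 29.4 CPM in control. The ferritin chains FTL and FTH1, which store iron, had log2 fold changes of -1.89 and -1.44; 32.4% and 46.7% of their 31-base windows occur in other genes. The aldo-keto reductase AKR1C3 rose from 3.41, 3.51 and 3.62 CPM in control to 41.6, 51.8 and 46.6 CPM with vancomycin and stood at 1.15, 0.923 and 1.89 CPM with cisplatin. Iron and heme genes, a list that includes HMOX1 and both ferritins, had 6 of 18 members higher with vancomycin and 1, the heme transporter SLC48A1, higher with cisplatin.

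The promoter of TXNRD1, the thioredoxin reductase of this list, shows what such an element looks like; TXNRD1 stood at 559, 568 and 548 CPM with cisplatin, 1410, 1450 and 1380 CPM with vancomycin and 648, 627 and 603 CPM in control. It is the called NRF2 target with the smallest p whose window of 250 bases before to 50 bases after the RefSeq gene start (chr12:104215529-104215828, build GRCh38.p14, plus strand) held the core TGACNNNGC, searched on both strands and set in capitals.
TXNRD1: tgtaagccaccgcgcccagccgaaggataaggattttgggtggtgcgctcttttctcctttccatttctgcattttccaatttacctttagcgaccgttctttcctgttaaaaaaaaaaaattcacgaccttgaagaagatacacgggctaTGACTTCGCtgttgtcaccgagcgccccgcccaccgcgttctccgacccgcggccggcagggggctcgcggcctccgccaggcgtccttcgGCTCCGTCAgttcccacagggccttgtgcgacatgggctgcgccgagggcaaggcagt
The core was found in 5 of 19 list members with a window, in 13.56% of all 27305 promoters and in 15.11% of those of genes tested, so its letters are common. ME1 and PIR, 2 further called members, also held it.

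Lysosomal hydrolases and membrane proteins had 20 of 36 members higher with vancomycin and none higher with cisplatin, with a median of -1.10; with totals alone 15 were higher with vancomycin and 1 with cisplatin. Against control 19 were DEGs above it with vancomycin and 2 with cisplatin. GPNMB, a glycoprotein of stressed lysosomes, had 34.3, 32.6 and 33.3 CPM with cisplatin, 210, 223 and 220 CPM with vancomycin and 31.6, 25 and 27.6 CPM in the control samples (log2 fold change -2.65 ± 0.07 SE, edgeR adjusted p = 7.05e-17). The cisplatin samples lay just above control, and vancomycin far above. The proteases CTSD and CTSB, cathepsins D and B, had log2 fold changes of -2.42 and -2.17, though 55.5% of the windows of CTSD are shared with other transcripts. CTSA, the protective protein cathepsin A, stood at 151, 146 and 160 CPM with cisplatin, 538, 551 and 578 CPM with vancomycin and 147, 178 and 182 CPM in control (log2 fold change -1.81 ± 0.06 SE, edgeR adjusted p = 3.98e-15). SQSTM1, the autophagy receptor p62, followed the same order at 183, 187 and 182 CPM with cisplatin, 1020, 1070 and 1040 CPM with vancomycin and 203, 248 and 247 CPM in control. Autophagy genes as a list had 5 of 28 members higher with vancomycin, close to the 15.3% of all genes tested. MITF, a transcription factor related to the lysosomal regulator TFEB, was the 1 member higher with cisplatin (1.71), of 2 with totals alone; its level with vancomycin was below control. Subunits of the proton pump V-ATPase had 2 of 19 members higher with vancomycin, TCIRG1 and ATP6V0D2, and none higher with cisplatin. Of all genes tested 15.3% and 13.4% were called in these directions. The call of TCIRG1 was lost with totals alone.

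The CLEAR element binds TFEB and its relatives. CTSA was the called lysosomal gene whose promoter window (chr20:45891085-45891384, GRCh38.p14, plus strand) held its core TCACGTGA, which reads the same on both strands and is set in capitals.
CTSA: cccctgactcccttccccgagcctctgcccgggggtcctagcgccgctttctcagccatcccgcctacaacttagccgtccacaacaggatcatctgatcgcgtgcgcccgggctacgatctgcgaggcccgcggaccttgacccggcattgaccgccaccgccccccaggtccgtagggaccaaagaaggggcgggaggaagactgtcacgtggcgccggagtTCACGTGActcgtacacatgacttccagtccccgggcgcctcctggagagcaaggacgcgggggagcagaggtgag
The core was found in 4 of 25 lysosomal genes with a window, 3 of them not called. It occurs in 1.04% of all promoters and in 1.88% of those of genes tested.

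Genes of cholesterol synthesis had 12 of 26 members higher with vancomycin and none higher with cisplatin (median -0.73); with totals alone the count fell to 5. INSIG1, which holds the sterol sensor in the endoplasmic reticulum (ER), parted from control in both directions, at 60.5, 59.5 and 56.9 CPM with cisplatin, 272, 317 and 273 CPM with vancomycin and 126, 124 and 117 CPM in control (log2 fold change -2.23 ± 0.07 SE, edgeR adjusted p = 1.52e-15). The regulator SREBF2 stood at 134, 129 and 129 CPM with cisplatin, 319, 287 and 335 CPM with vancomycin and 237, 261 and 269 CPM in control (log2 fold change -1.21 ± 0.07 SE, edgeR adjusted p = 6.19e-12), a call that was lost with totals alone. Its promoter window (chr22:41832855-41833154, GRCh38.p14, plus strand) was the only one of 19 in this list with the sterol element core TCACNCCAC, set in capitals. With both strands searched, the core occurs in 1.15% of all promoters and in 1.09% of those of genes tested.
SREBF2: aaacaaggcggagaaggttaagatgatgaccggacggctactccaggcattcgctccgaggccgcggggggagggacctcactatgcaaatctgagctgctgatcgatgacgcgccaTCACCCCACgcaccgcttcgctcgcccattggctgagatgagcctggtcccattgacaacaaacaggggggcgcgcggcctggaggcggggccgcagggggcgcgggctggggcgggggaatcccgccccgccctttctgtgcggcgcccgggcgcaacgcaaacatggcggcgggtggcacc
Among sterol export and LXR target genes APOE, the lipid carrier, had 81.4, 81.4 and 87.3 CPM with cisplatin, 678, 844 and 769 CPM with vancomycin and 46.2, 60.2 and 59.4 CPM in control (log2 fold change -3.14 ± 0.08 SE, edgeR adjusted p = 2.83e-17), and MYLIP, which degrades the LDL receptor, was higher with cisplatin (2.23).

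Glucose use and hypoxia genes had 17 of 23 members higher with vancomycin and none higher with cisplatin, with a median of -1.37. The medians against control were -0.78 with cisplatin and 0.51 with vancomycin. GAPDH had 1560, 1570 and 1610 CPM with cisplatin, 5340, 5310 and 5410 CPM with vancomycin and 2650, 2860 and 2800 CPM in the control samples (log2 fold change -1.71 ± 0.05 SE, edgeR adjusted p = 8.22e-16), called against control with neither drug, and 35.2% of its windows are shared. PKM, the pyruvate kinase, and the glucose carrier SLC2A1 were called with cisplatin only. SLC2A1 had 289, 297 and 299 CPM with cisplatin, 845, 845 and 929 CPM with vancomycin and 685, 782 and 793 CPM in control. VEGFA, the endothelial growth factor, was called with vancomycin only (-1.73 between the drugs). Of 20 ER chaperone genes 8 were higher with vancomycin and none with cisplatin, with a median of -0.88; with totals alone 2 were higher with vancomycin. CALR, calreticulin, had 666, 648 and 689 CPM, 1780, 2080 and 2010 CPM and 1090, 1190 and 1160 CPM in the cisplatin, vancomycin and control samples.

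Interferon-stimulated genes had 17 of 25 members higher with vancomycin and none higher with cisplatin, with a median of -1.50; 18 were DEGs above control with vancomycin, and with cisplatin 4 lay above and 4 below. IFI44L, of unsettled function, had 4.24, 4.31 and 4.78 CPM with cisplatin, 39.8, 39.1 and 39.7 CPM with vancomycin and 9, 8.6 and 8.02 CPM in control (log2 fold change -3.10 ± 0.11 SE, edgeR adjusted p = 1.1e-14). RSAD2, the antiviral enzyme viperin, had 0.303, 0.431 and 0.473 CPM with cisplatin, 8.13, 9.18 and 9.86 CPM with vancomycin and 1.02, 0.816 and 0.789 CPM in control. The ubiquitin-like ISG15 was above control with both drugs and higher with vancomycin (-1.33).

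Toll-like receptor and NF-kB genes had 7 of 21 members higher with vancomycin and none with cisplatin. SOD2, the mitochondrial superoxide dismutase induced by NF-kB (25.3% shared windows), had 272, 272 and 262 CPM with cisplatin, 1590, 1720 and 1420 CPM with vancomycin and 294, 268 and 262 CPM in control (log2 fold change -2.50 ± 0.07 SE, edgeR adjusted p = 1.9e-16). The adhesion molecule ICAM1 (-1.42), the inhibitor NFKBIA (-1.28, lost with totals alone) and TLR2 (-2.07) followed. Of 17 cytokines and chemokines 7 were higher with vancomycin and 1, IL18, with cisplatin, and 5 and 2 with totals alone. CSF1, the macrophage growth factor, had 44.6, 39.1 and 40.8 CPM, 241, 234 and 240 CPM and 56.8, 68.3 and 68.9 CPM in the cisplatin, vancomycin and control samples (log2 fold change -2.47 ± 0.07 SE, edgeR adjusted p = 2.87e-16), and IL6 46.3, 44.6 and 45.9 CPM with cisplatin, 129, 139 and 110 CPM with vancomycin and 74.5, 57.7 and 66.5 CPM in control. CXCL8, interleukin 8, was not a DEG, at 1600, 1590 and 1570 CPM with cisplatin and 1380, 1620 and 1140 CPM with vancomycin. The call of IL18 (1.02) was lost when vancomycin replicate 1 or 3 was left out.

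In the lists of mitosis, DNA replication and DNA repair genes every DEG was higher with cisplatin. Of 30 mitosis genes 9 were DEGs (median 0.79), of 27 DNA replication genes 8 (median 0.56) and of 27 crosslink and excision repair genes 9 (median 0.68). With totals alone the counts were 16, 11 and 13. Of all genes tested 13.4% were DEGs higher with cisplatin and 15.3% higher with vancomycin. Without the fold threshold 27 mitosis, 20 replication and 19 repair genes passed the adjusted p higher with cisplatin, and 0, 6 and 4 higher with vancomycin. By DEG calls the step against control lay mostly on the vancomycin side, and no member of these lists was a DEG above control. Below control were 14 mitosis genes with vancomycin (median -0.94) and none with cisplatin (median -0.11). For replication genes the numbers were 8 with vancomycin (median -0.54) and 2 with cisplatin (median 0.12). For repair genes they were 5 (median -0.47) and 0 (median 0.21). CDK1, the kinase that drives entry into mitosis, had 279, 280 and 290 CPM with cisplatin, 96.2, 110 and 83.9 CPM with vancomycin and 222, 209 and 193 CPM in control (log2 fold change 1.60 ± 0.08 SE, edgeR adjusted p = 6.06e-13). MKI67, the proliferation marker, had 611, 600 and 572 CPM with cisplatin, 338, 228 and 286 CPM with vancomycin and 664, 618 and 605 CPM in control, and its call was lost without vancomycin replicate 2, its lowest sample. The ribonucleotide reductase subunit RRM2 (39.0% shared windows) had 235, 249 and 251 CPM with cisplatin, 73.2, 74.1 and 74.3 CPM with vancomycin and 158, 148 and 137 CPM in control (log2 fold change 1.79 ± 0.06 SE, edgeR adjusted p = 6.87e-15), so that the drugs lay on either side of control. CDC6, which licenses replication origins, followed the same order (1.86). ERCC2, the helicase of nucleotide excision repair, had 120, 123 and 121 CPM with cisplatin, 38.2, 38.2 and 39.5 CPM with vancomycin and 80.3, 91.9 and 92.1 CPM in control (log2 fold change 1.70 ± 0.07 SE, edgeR adjusted p = 3.69e-14). FANCD2, the central protein of the Fanconi crosslink pathway, stood at 45.7, 45.5 and 49.6 CPM with cisplatin, 22.7, 21.3 and 21.7 CPM with vancomycin and 45.4, 42.2 and 41 CPM in control, the cisplatin samples just above the control range.

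The targets of p53 were split, with 4 of 28 members higher with cisplatin and 6 with vancomycin (median 0.11; 4 and 4 with totals alone), against 13.4% and 15.3% of all genes. CDKN1A, the cell cycle inhibitor p21, was above control with both drugs, at 122, 139 and 139 CPM with cisplatin, 276, 293 and 296 CPM with vancomycin and 38.2, 48 and 50.5 CPM in control (log2 fold change -1.06 ± 0.07 SE, edgeR adjusted p = 2.84e-11); the call between the drugs was lost with totals alone and without cisplatin replicate 1. The death receptor FAS was higher with cisplatin, at 46.6, 44.3 and 41.3 CPM against 18.5, 17.8 and 17.8 CPM. MDM2, the ubiquitin ligase of p53, was not a DEG, at 70.6, 68.4 and 66.5 CPM with cisplatin and 66.2, 61.9 and 52.5 CPM with vancomycin. Among 15 BCL2 family genes 5 were higher with vancomycin, the BH3-only killers HRK, PMAIP1, BBC3, BMF and BAD, and none with cisplatin. PMAIP1, which encodes NOXA, had 103, 96.8 and 107 CPM with cisplatin, 252, 307 and 240 CPM with vancomycin and 64.1, 52.5 and 59.3 CPM in control (log2 fold change -1.33 ± 0.08 SE, edgeR adjusted p = 1.35e-11). The calls of BMF and BAD were lost with totals alone, and 1 member was then higher with cisplatin.

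Ribosomal protein genes had 32 of 84 members higher with vancomycin and 2 higher with cisplatin (median -0.89), and 18 and 3 with totals alone. RPS23 stood out among them, with 17.5, 15.4 and 17.1 CPM with cisplatin, 12.1, 14.9 and 16.1 CPM in control and 343, 399 and 349 CPM with vancomycin (log2 fold change -4.39 ± 0.08 SE, edgeR adjusted p = 1.55e-18). The cisplatin and control samples overlapped, and vancomycin lay far above. RPL3 had 397, 420 and 434 CPM with cisplatin, 1590, 1890 and 1720 CPM with vancomycin and 824, 992 and 959 CPM in control. Of the windows of RPS23 and RPL3, 14.4% and 28.5% occur in other genes. Of 83 tested ribosomal protein pseudogenes 39 were higher with vancomycin and 11 with cisplatin, and the elongation factor pseudogene EEF1A1P5, 94.1% of whose windows occur in other genes, had a log2 fold change of -3.60. RN7SL2, an RNA of the signal recognition particle (92.6% shared windows), had 5.82, 3.45 and 2.48 CPM with cisplatin, 150, 162 and 157 CPM with vancomycin and 1.38, 2.82 and 1.84 CPM in control (log2 fold change -5.26 ± 0.15 SE, edgeR adjusted p = 1.84e-16). Of 19 tested records of structural noncoding RNAs 6 were higher with each drug. AC010343.1, with 44.2% shared windows, had 0.727, 0.985 and 0.827 CPM with cisplatin and 40, 50.6 and 45.1 CPM with vancomycin. How the authors' counting treated reads with several matches is not given in the sources used here, so these levels are uncertain.

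The clustered histone genes had 13 of 26 tested members higher with vancomycin and 3 with cisplatin. HIST1H2BK had 10.5, 12.8 and 12.8 CPM in control, 21.1, 18.7 and 21 CPM with cisplatin and 61, 64.6 and 70.8 CPM with vancomycin (log2 fold change -1.64 ± 0.09 SE, edgeR adjusted p = 3.42e-12), with 87.3% of its windows shared. HIST1H4C had 0.121, 0.0616 and 0 CPM with cisplatin, 3.32, 3.51 and 3.88 CPM with vancomycin and no count in control, where 3 counts would be 0.188 to 0.218 CPM. The libraries were made from poly(A) RNA, and most replication-dependent histone messages carry no poly(A) tail.

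The span of a gene on the chromosome went along with its direction. Among the 994 tested protein-coding genes over 200 kb, 40.7% were DEGs higher with vancomycin and 5.63% higher with cisplatin (median -0.74). The shares were 16.4% and 8.08% for 50 to 200 kb, 12.1% and 10.1% for 10 to 50 kb and 15.7% and 12.5% under 10 kb. Against control the median of the genes over 200 kb was -0.98 with cisplatin and -0.20 with vancomycin, and 468 of them were DEGs below control with cisplatin. GPC6, MAP2, HECW2 and COL5A1 belong to this class, while SHISA9 (338794 bases) and ABCB1 (209691 bases) are members that were higher with cisplatin. By biotype, 32.9% of 1859 long noncoding RNAs were higher with cisplatin and 7.64% with vancomycin, against 9.63% and 16.2% of 13254 protein-coding genes. CASC19, LINC00857 and GABPB1-AS1 had the smallest p among these. LINC00857 had 31.9, 35.3 and 36.8 CPM with cisplatin, 3.88, 3.44 and 5.3 CPM with vancomycin and 5.37, 5.9 and 5.92 CPM in control (log2 fold change 3.09 ± 0.14 SE, edgeR adjusted p = 1.86e-13), called with cisplatin only. CASC19 had 32.3, 37.5 and 33.9 CPM, 3.38, 4.39 and 4.56 CPM and 10.3, 7.97 and 9.14 CPM in the same order and parted in both directions. GABPB1-AS1 (2.44) overlaps GABPB1, from which it cannot be told apart without strand.

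**Figure D4:**
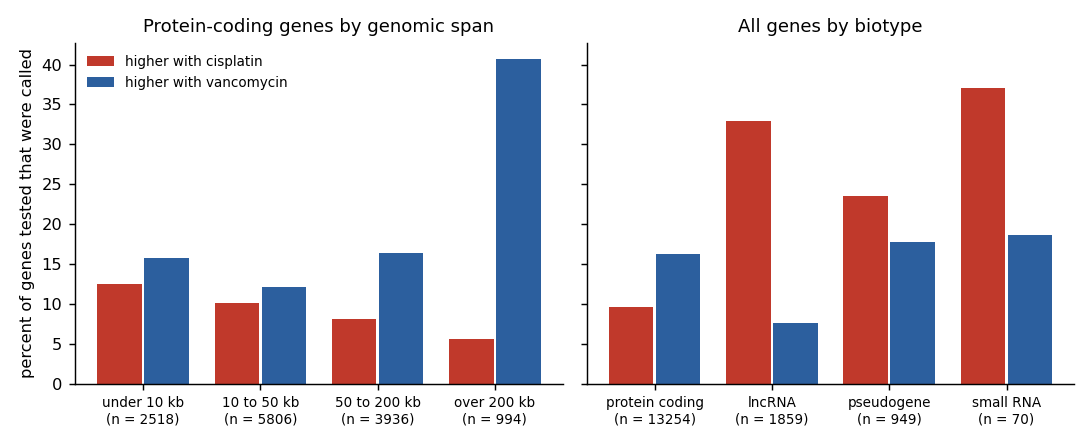
Bars give the percent of tested genes called higher with cisplatin (red) and higher with vancomycin (blue), on the left for protein-coding genes by genomic span and on the right for all genes by biotype; n is the number tested. Protein-coding genes over 200 kb were higher with vancomycin in 40.7% and with cisplatin in 5.63%, and long noncoding RNAs were higher with cisplatin in 32.9%.

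Growth factor signalling differed in a few members. Of all genes tested, 13.4% were DEGs higher with cisplatin and 15.3% higher with vancomycin, and the ERK feedback and immediate early lists lay near or below these shares. The EGFR ligands AREG and HBEGF were higher with cisplatin, AREG at 179, 180 and 187 CPM against 55.6, 60.6 and 50.6 CPM with vancomycin and 183, 169 and 168 CPM in control, a loss with vancomycin, and HBEGF at 185, 178 and 178 CPM against 68.6, 81.5 and 74.3 CPM and 88.1, 81.4 and 85 CPM, a gain with cisplatin. The ligand BTC was higher with vancomycin (-1.77). EGFR itself was not a DEG between the drugs, at 148, 141 and 132 CPM with cisplatin, 225, 160 and 197 CPM with vancomycin and 511, 516 and 537 CPM in control. Of 14 ERK feedback genes DUSP6 was higher with cisplatin (1.28) and DUSP10 and DUSP16 with vancomycin; with totals alone 3 were higher with cisplatin and 1 with vancomycin. The immediate early genes held 4 DEGs higher with cisplatin and 2 with vancomycin among 29; their median of -0.21 turned to 0.08 with totals alone. Of these FOS had 15.8, 15 and 14.2 CPM with cisplatin, 32.7, 44.4 and 34.5 CPM with vancomycin and 1.96, 1.63 and 2.17 CPM in control, above control with both drugs; its call between them was lost with totals alone, as was that of JUNB.

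Further stress lists were compared, beside shares of 13.4% higher with cisplatin and 15.3% higher with vancomycin among all genes tested. Of 22 ATF4 and amino acid stress genes 5 were higher with vancomycin and none with cisplatin (3 and 1 with totals alone). NUPR1, a stress-induced nuclear protein, had 0.485, 0.554 and 0.65 CPM with cisplatin and 14.4, 21.4 and 14.8 CPM with vancomycin, and DDIT4, an inhibitor of mTORC1, 48.3, 50.8 and 53.4 CPM and 186, 220 and 208 CPM. Of 19 cytosolic heat shock genes 4 were higher with vancomycin and 1 with cisplatin; the near-identical HSPA1A and HSPA1B, with log2 fold changes of -1.42 and -1.88, share 72.2% and 74.1% of their windows. Among 11 metallothionein and zinc genes 3 were higher with cisplatin and none with vancomycin, including the zinc exporter SLC30A1 at 194, 191 and 192 CPM against 105, 94.9 and 84.8 CPM, a call lost without vancomycin replicate 3. MT2A, a metal-binding metallothionein, was not a DEG, at 313, 334 and 306 CPM with cisplatin, 487, 474 and 524 CPM with vancomycin and 1140, 1080 and 913 CPM in control.

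Energy genes outside glycolysis differed in few members. Their counts below lie near or under the shares of all genes tested, 13.4% higher with cisplatin and 15.3% higher with vancomycin. Of 13 genes of the mitochondrial genome 1 was a DEG, MT-ATP8, which was higher with vancomycin and overlaps MT-ATP6, from which its reads cannot be separated; with totals alone 2 were higher with cisplatin and 1 with vancomycin. Of 82 nuclear respiratory chain genes 8 were higher with vancomycin and 1 with cisplatin, and 2 with vancomycin and 3 with cisplatin with totals alone. COX5B had 65.7, 69.2 and 68.7 CPM with cisplatin and 183, 223 and 176 CPM with vancomycin. Of 37 proteasome subunits 2 were higher with vancomycin, PSMB9 (-1.59) and PSMB10 (-1.80), which belong to the interferon-induced immunoproteasome. For PSMB10, 42.5% of the windows are shared with other genes. The median of the list was 0.00, and with totals alone it was 0.28 and 1 member was higher with cisplatin. Of 13 fatty acid oxidation genes PLIN2, a lipid droplet protein, and PPARA were higher with vancomycin, with log2 fold changes of -1.35 and -1.57; with totals alone the median of -0.10 turned to 0.18 and 1 member was higher with cisplatin.

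**Figure D5:**
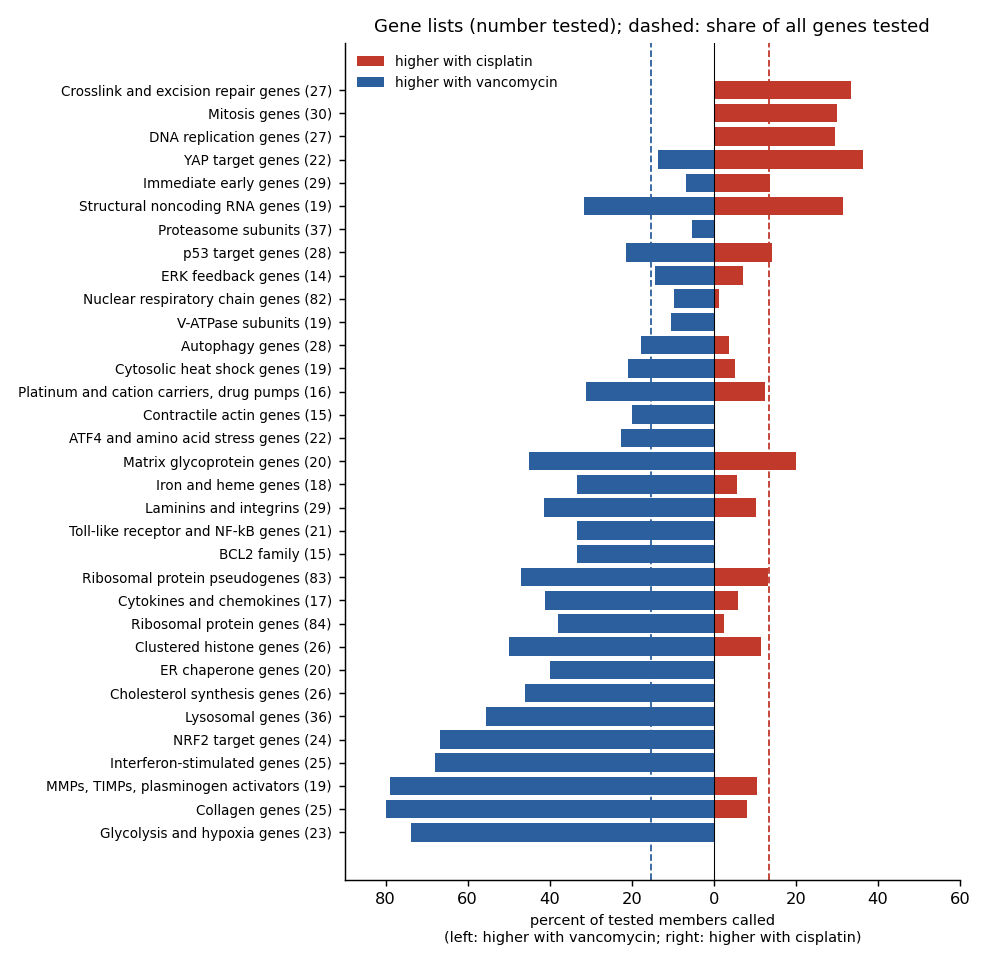
Bars give the percent of tested members called higher with cisplatin (red, right) and higher with vancomycin (blue, left). Shown is each gene list with at least 14 members tested (number in brackets), without the lists of kidney injury and cell type markers. Dashed lines are the shares of all genes tested, 13.4% and 15.3%. Repair, mitosis and replication genes have red bars only, while glycolysis, interferon, NRF2, cholesterol and ER chaperone genes have blue bars only.

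Kidney injury markers had 7 of 16 tested members higher with vancomycin and 1 with cisplatin, and 5 and 2 with totals alone. With the main scaling 15.3% and 13.4% of all genes tested were DEGs in these directions. LCN2, which encodes NGAL, had 3.21, 2.65 and 2.3 CPM with cisplatin, 22.2, 26.9 and 24.9 CPM with vancomycin and 2.1, 2.32 and 2.89 CPM in control (log2 fold change -3.12 ± 0.15 SE, edgeR adjusted p = 4.31e-13). IGFBP7 had 198, 204 and 219 CPM, 629, 768 and 684 CPM and 292, 328 and 334 CPM in the same order (log2 fold change -1.69 ± 0.07 SE, edgeR adjusted p = 6.5e-14), while TIMP2, its partner in a urinary test of tubular stress, had 191, 185 and 184 CPM with cisplatin, 448, 438 and 435 CPM with vancomycin and 358, 360 and 359 CPM in control, a call lost with totals alone. HAVCR1, which encodes KIM-1, was not a DEG between the drugs and lay below control with both, at 75.4, 68.1 and 67.2 CPM with cisplatin, 93.8, 71.4 and 88.6 CPM with vancomycin and 196, 186 and 186 CPM in control. Of the 4 hub genes the study names, chosen by its authors on these samples, TNFAIP6 was a DEG higher with cisplatin, at 4.42, 4.37 and 4.08 CPM against 0.939, 0.743 and 0.554 CPM with vancomycin and 13.4, 13.3 and 10.5 CPM in control (log2 fold change 2.57 ± 0.29 SE, edgeR adjusted p = 1.44e-07). TLR4 had 1.03, 0.554 and 1.36 CPM with cisplatin and 1.81, 1.08 and 1.23 CPM with vancomycin (log2 fold change -0.43 ± 0.39 SE, edgeR adjusted p = 0.337), and AOC3 2.3, 2.89 and 2.89 CPM and 2.63, 3.98 and 3.57 CPM (log2 fold change -0.27 ± 0.24 SE, edgeR adjusted p = 0.323), neither past the test. IRF4 did not pass the filter on low counts.

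Carriers that bring platinum or organic cations into cells and pumps that remove drugs had 2 of 16 tested members higher with cisplatin and 5 with vancomycin. The shares of all genes tested were 13.4% and 15.3%. ABCB1, the P-glycoprotein pump, had 150, 142 and 143 CPM with cisplatin, 60.4, 59.8 and 64.9 CPM with vancomycin and 194, 174 and 180 CPM in control (log2 fold change 1.29 ± 0.07 SE, edgeR adjusted p = 1.73e-12). The vancomycin samples lay below both other groups. ABCC3 and ABCG2 were higher with vancomycin, with log2 fold changes of -1.79 and -3.58, and the organic anion carrier SLCO2A1 was higher with cisplatin (1.62).

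The proximal tubule label was checked against its markers. Of 21 markers 14 passed the filter, 6 of which were DEGs higher with vancomycin and none higher with cisplatin. Of all genes tested 15.3% and 13.4% were DEGs in these directions. At any fold 3 of the 14 leaned toward cisplatin, 2 of them with an edgeR adjusted p under 0.05. The summed level of the list was 1790 to 1830 CPM with cisplatin, 2810 to 2860 CPM with vancomycin and 1970 to 2130 CPM in control. DPP4, a brush border peptidase, had 74.3, 72.2 and 67.5 CPM with cisplatin, 595, 554 and 549 CPM with vancomycin and 146, 138 and 136 CPM in control (log2 fold change -2.93 ± 0.07 SE, edgeR adjusted p = 1.91e-17), and the kidney factor PAX8 131, 130 and 133 CPM with cisplatin, 426, 366 and 430 CPM with vancomycin and 329, 373 and 413 CPM in control. Defining carriers of the tubule in vivo were at or near 0: over all 12 libraries LRP2 had 7 counts, SLC22A8 had 1 and SLC22A6 had 0. No distal nephron marker of 7 passed the filter. Immune markers summed to 8.03 to 8.90 CPM with cisplatin, 12.2 to 15.2 CPM with vancomycin and 13.1 to 15.7 CPM in control, with CD3E at 2 counts. The cisplatin samples were thus the ones below control. Of 6 endothelial markers only 1, PECAM1, passed the filter, and it was higher with cisplatin, at 1.88, 1.97 and 1.71 CPM against 0.188, 0 and 0.0616 CPM with vancomycin. Its log2 change against control was 0.49 with cisplatin and -3.87 with vancomycin, a loss with vancomycin. Of 5 podocyte markers 2 were tested. PODXL was higher with vancomycin (-1.63), while the other had a positive log2 fold change that did not pass the adjusted p. The podocyte markers summed to 89.3 to 96.5 CPM with cisplatin, 90.9 to 110 CPM with vancomycin and 117 to 136 CPM in control.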

How the data were processed

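RNA-seq was measured in 12 samples of HK-2 cells, 3 each of 4 groups taken from the sample titles. The authors deposited whole-number counts of reads per gene, not normalized, for 58735 genes. Per the labels, libraries were made from poly(A) RNA with an NEBNext Ultra kit, and the submitters' processing notes name CASAVA 1.8, fastp, HISAT2 2.0.5, featureCounts 1.5.0-p3 and DESeq2 1.20.0; gene positions are on GRCh38, and the annotation release and strand setting are not given in the sources used here. Total counts of the 6 compared samples were 14466712 to 18177109, at which 3 counts correspond to 0.177 to 0.203 CPM on the scale below, for counting error only.

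From these counts, the 3 cisplatin and 3 vancomycin samples were compared with edgeR 4.0.16 in R 4.3.3 (TMM, genes kept by filterByExpr with a minimum count of 10 and also a minimum total of 15, quasi-likelihood test, Benjamini-Hochberg adjustment over all genes tested). Each drug was compared with the control samples in a separate fit of the same kind. SE was derived as the absolute log2 fold change over the root of the F statistic. CPM were scaled by library totals multiplied by TMM factors estimated on all 12 samples. Medians and counts of gene lists are descriptions with no test. Named genes were, per direction, the 10 protein-coding genes and the 3 others with the smallest p, the 5 with the largest opposite changes against control, the 5 with the largest fold at 10 CPM or more, and members of the lists by smallest p or role, including members not called. Members and lists were chosen with earlier results of these data known.

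Shared sequence is the share of 31-base windows, taken every 5 bases, of a gene's GENCODE transcripts that occur in transcripts of other genes. Promoter windows came from RefSeq (GRCh38.p14), matched by symbol, for 11406 of the genes tested. No paired fit was used as the main one: deviations of same-numbered samples correlated at 0.0694, -0.00808 and -0.00271. Alternatives were DESeq2 1.42.0, limma-voom (limma 3.58.1), RLE factors, library size only, other filters, a fit of all 4 groups, a replicate block, unadjusted p, no fold threshold and leaving out each sample. Some genes are not reported here by name.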

Additional observations from a re-analysis of the deposited data

How the results depend on the processing

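The count of DEGs between the drugs was 4549 with DESeq2, 4692 with limma-voom, 4657 with RLE factors, 5709 over all genes with at least 1 count and 4861 in a fit of all 4 groups, against 4665. Leaving out 1 sample in turn gave 4761 to 4906 DEGs, 2204 to 2271 higher with cisplatin and 2512 to 2669 higher with vancomycin. No pairing was found for samples of the same replicate number; with the replicate block 4626 DEGs were called, 2157 higher with cisplatin and 2469 higher with vancomycin. With library size only, 3289 genes were higher with cisplatin and 1791 with vancomycin, and the genes called against control with neither drug became 1225 and 366, those higher with cisplatin and called with cisplatin alone 1078, and those higher with cisplatin and called with both apart 118. A minimum of 10 counts in every sample removes genes near 0 in one group and left 1388 genes higher with cisplatin. Of these, 285 were called against control with cisplatin alone, 38 with both apart and 14 with both the same way, and of the genes higher with vancomycin 626 were called with vancomycin alone and 83 with both apart. Without a fold threshold 11474 genes passed, 5728 and 5746 by direction. Among 448 named genes and called list members, 83 lost their call with library size only and 2 to 22 under other alternatives that changed a call; the minimum of 10 counts in every sample kept 367 of them, of which 1 lost its call, and left 81 untested; AOC3, not called, turned from -0.27 to 0.01 with library size only. Of 94 list counts 62 moved by over 1.5 times without a fold threshold, 23 with library size only, 15 with the minimum of 10 counts in every sample, 1 to 5 when single samples were left out, 4 over all genes with at least 1 count, 4 in the fit of all 4 groups, 1 with limma-voom and 0 with DESeq2, RLE factors, unadjusted p or the block. The cause of these changes was not tested.

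At these library totals genes at a few counts per library have wide errors, and 3 against 3 samples give an exact permutation p of at least 0.1 for a single value. Reads shared between near-identical genes, strand and drug dose limit single genes as stated with them.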

Other observations

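The iohexol samples were in no comparison of the report, and their values are given for genes described there. CTGF had 202, 176 and 212 CPM, between the control and vancomycin samples, and THBS1 415, 462 and 472 CPM, near the cisplatin samples. COL12A1, at 131, 135 and 141 CPM, lay near or above the cisplatin samples. MMP1 had 18.5, 12.3 and 18.5 CPM, lower than control as with cisplatin, and MMP7 12, 11.8 and 12 CPM, below every sample of the other groups. HMOX1 had 58.7, 53.9 and 40.1 CPM, within or near the control range, whereas CTSD had 666, 632 and 389 CPM, above every control sample. The metallothionein MT1G had 0.829, 1.09 and 0.935 CPM with iohexol, 16.5, 18.7 and 15 CPM with cisplatin, 7.76, 4.93 and 4.93 CPM with vancomycin and 22.8, 22.2 and 15.5 CPM in control.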
